A study of Homo sapiens with 4 samples.

Results

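The genes described here are 39 genes of glycolysis and of the response to low oxygen, whose transcripts were sequenced in TPC1, a human cell line of papillary thyroid cancer driven by a CCDC6-RET fusion. They were taken by name from the deposited table of 20372 genes. Each of the 39 had 1 row, and 38 had enough reads to be tested. The exception was CA9, with 2 and 2 reads with BLU6864 and 1 and 0 reads with DMSO. The members comprise 23 genes of glycolysis and its control, 4 transporters of glucose and lactate, 11 targets of hypoxia-inducible factor (HIF) outside glycolysis, and HIF1A itself.

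The groups were TPC1 cells that received the RET kinase inhibitor BLU6864 for 6 h (2 libraries) and TPC1 cells that received its solvent DMSO (2 libraries). All were grown in DMEM with serum, and the comparison asks which transcripts differ when the fusion kinase is inhibited. The labels give a dose of 100 micromolar, while the text of the study gives a nanomolar one, so the dose is uncertain. The deposited DMSO columns carry 24 h in their names and the labels give DMSO no time, so inhibition and duration of culture cannot be told apart. Nothing in the labels says that the libraries of a group came from separate cultures, and p-values then measure only the spread between these libraries, which may be technical. All libraries come from 1 cell line, and in bulk RNA fewer cells with a transcript and less RNA per cell cannot be told apart.

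Glycolysis splits glucose into pyruvate in a chain of cytosolic steps that yield ATP and NADH without oxygen. Hexokinase traps glucose in the cell, phosphofructokinase commits it to the chain, and lactate dehydrogenase restores NAD by turning pyruvate into lactate, which monocarboxylate transporters export. HIF is a dimer of an oxygen-labile alpha subunit and a stable beta subunit. In oxygen, the EGLN prolyl hydroxylases mark the alpha subunit for the VHL ubiquitin ligase, and in its absence HIF binds short DNA elements near glycolytic genes and near genes of vessel growth, mitophagy and collagen processing. Growth factor signalling is also known to raise glucose uptake and glycolytic transcripts in many cancer cells.

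Libraries held between 23750509 and 28305571 reads over the table, and the 100 most abundant genes took between 17.9 and 18.9% of them. Of the thyroid follicular markers, PAX8 was abundant (19124 to 29985 reads), while NKX2-1 and TSHR had no read in any library. Lists of markers of other cell types were read in part. Of 6 leukocyte markers, 2 had no read in any library, CD3E among them, and PTPRC had 1 to 5 reads, but CD68 had 4452 and 4784 reads with BLU6864, against 6217 and 4622 with DMSO, and CD14, called higher, had 47 and 41 with BLU6864, against 21 and 15 with DMSO. The summed normalized counts of the leukocyte list were 4728 and 4525 with BLU6864 and 5713 and 5081 with DMSO. Of 6 fibroblast markers, COL1A2, COL3A1 and DCN had no read, while COL1A1 (144 to 237 reads) and PDGFRB (173 to 373 reads) were called higher, and the list summed to 588 and 609 with BLU6864 and 414 and 376 with DMSO. Of 3 endothelial markers with a row, CDH5 had at most 1 read, and the list summed to 527 and 494 with BLU6864 and 105 and 161 with DMSO, nearly all from KDR. The part of these genes in the results was not tested.

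Most members were lower with BLU6864. Of the 38 tested, 22 fell (57.9%), 3 rose (7.89%) and 13 did not pass the test, where a call means an edgeR quasi-likelihood adjusted p under 0.05 over 12696 genes. Over all genes tested, 22.0% were called lower and 20.3% higher. The median log2 fold change of the members was -0.39, against 0.01 over all genes. With a log2 fold change beyond 0.5 and an unadjusted edgeR p under 0.01, 16 members were lower (42.1%) and 2 higher (5.26%), beside 12.5% and 11.0% of all genes. The methods of the study give these values for decreases and with DESeq2, and here they were applied in both directions. In 31 members (81.6%) both BLU6864 libraries lay below both DMSO libraries and in 4 (10.5%) above, beside 35.7% and 35.1% of all genes. The members were chosen with earlier results of these data known, so these shares are a description.

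**Figure D1:**
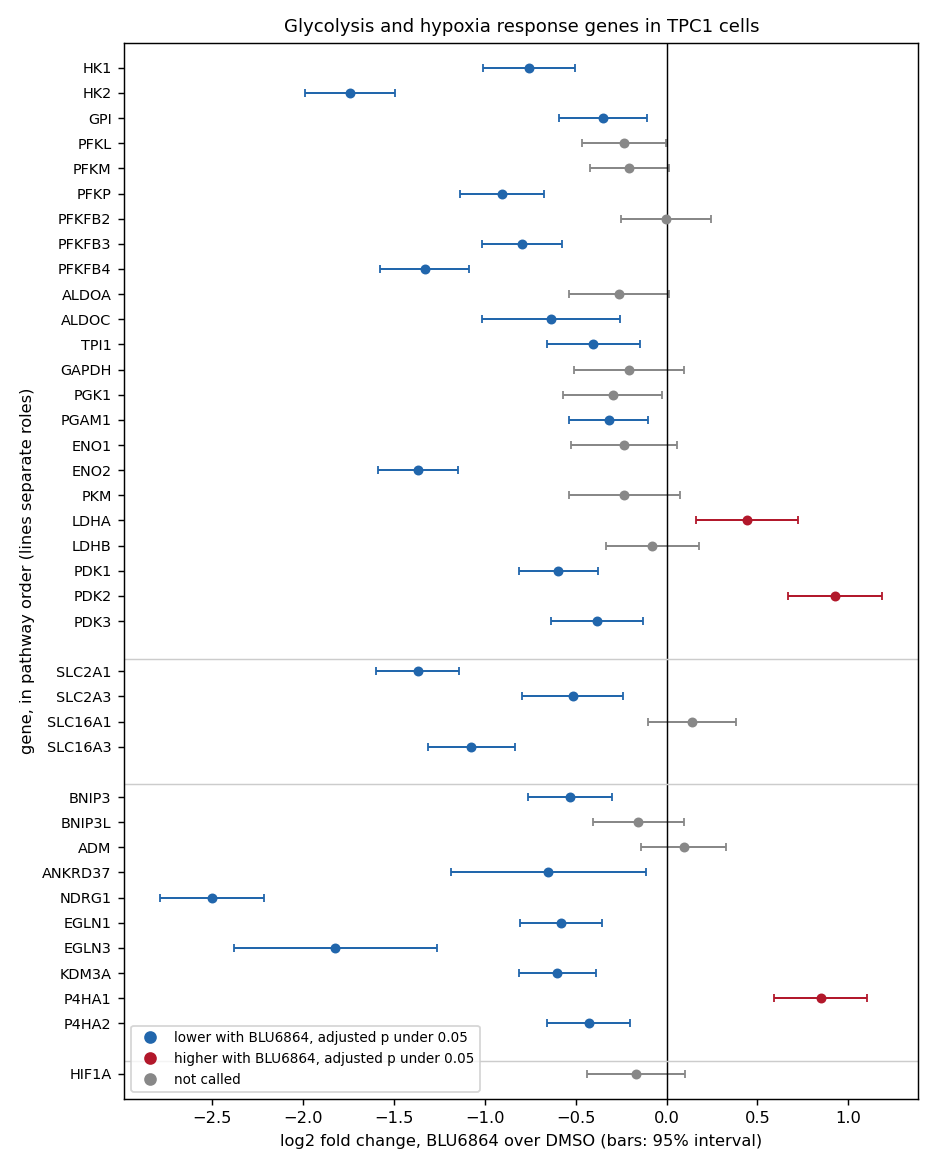
The log2 fold change (BLU6864 over DMSO) of the 38 tested members is plotted on the x axis, with bars for the 95% interval, and the genes run down the y axis in pathway order with lines between roles. Values reach from -2.50 for NDRG1 to 0.93 for PDK2, and the 3 members in red (LDHA, PDK2 and P4HA1) were called higher.

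**Figure D2:**
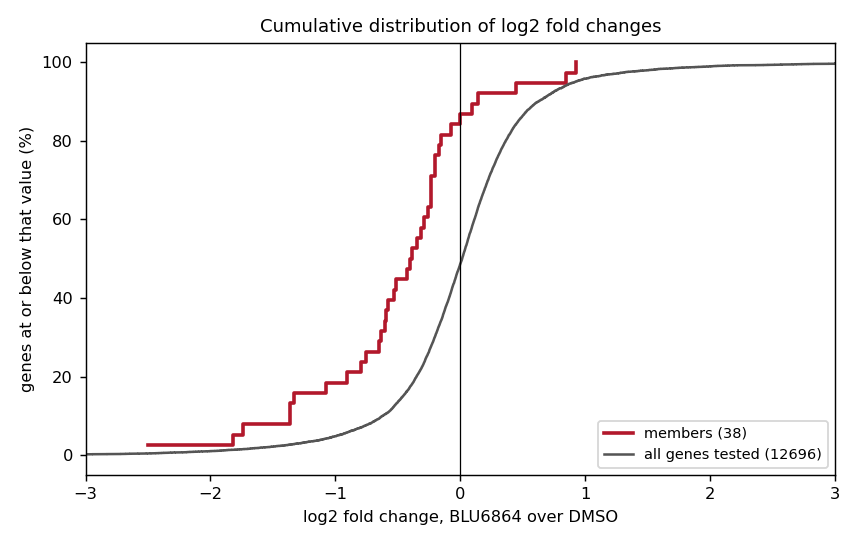
The cumulative percent of genes (y axis) at or below each log2 fold change (x axis, BLU6864 over DMSO) is drawn for the 38 tested members and for all 12696 genes. The curve of the members lies to the left, with a median of -0.39 against 0.01 for all genes.

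HIF recognises the letters ACGTG and GCGTG, the core of the hypoxia response element, and the promoters of the members with the largest changes were read for them, from 250 bases before to 50 after the RefSeq start (GRCh38.p14). Of the 39 members, 34 had a promoter in the RefSeq table used. Either motif, on either strand, was in 26 of these 34 (76.5%) and in 48.0% of all 27305 promoters of that length. ACGTG was in 47.1% of the member promoters and 21.4% of all, and GCGTG in 47.1% and 36.1%, with promoters that hold both counted under each. The reverse complements searched were CACGT and CACGC, so CACGTG counts on both strands. Among members called lower 14 of 20 promoters held a motif, among those called higher 2 of 3, and among those not called 9 of 10. The 6 promoters below belong to the genes with the largest calls among those with an entry, and are shown because these members had the largest decreases; capitals mark the motif letters on either strand, the sequence runs 5′ to 3′ along the gene, and a match is a description of letters only. HK2 has 3 matches (chr2:74833877-74834176, plus strand), 229, 55 and 48 bases before the start. SLC2A1 has 1 (chr1:42958819-42959118, minus strand), 26 bases after the start. ENO2 has 1 (chr12:6914330-6914629, plus strand), 118 bases before it. PFKFB4 has 1 (chr3:48556754-48557053, minus strand), 166 bases before it. EGLN3 (chr14:33951025-33951324, minus strand) and SLC16A3 (chr17:82228185-82228484, plus strand) have no match in this window.
EGLN3: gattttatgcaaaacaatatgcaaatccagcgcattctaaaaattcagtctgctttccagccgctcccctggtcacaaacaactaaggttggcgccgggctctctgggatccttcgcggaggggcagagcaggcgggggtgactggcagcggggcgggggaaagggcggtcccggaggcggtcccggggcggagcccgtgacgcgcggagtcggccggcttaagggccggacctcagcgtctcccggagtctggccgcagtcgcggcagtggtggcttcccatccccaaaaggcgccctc
HK2: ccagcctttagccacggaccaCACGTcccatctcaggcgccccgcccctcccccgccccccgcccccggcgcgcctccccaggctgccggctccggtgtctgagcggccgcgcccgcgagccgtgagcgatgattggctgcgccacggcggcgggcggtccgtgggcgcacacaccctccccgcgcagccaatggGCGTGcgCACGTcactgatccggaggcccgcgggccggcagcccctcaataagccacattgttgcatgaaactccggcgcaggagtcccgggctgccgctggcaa
SLC2A1: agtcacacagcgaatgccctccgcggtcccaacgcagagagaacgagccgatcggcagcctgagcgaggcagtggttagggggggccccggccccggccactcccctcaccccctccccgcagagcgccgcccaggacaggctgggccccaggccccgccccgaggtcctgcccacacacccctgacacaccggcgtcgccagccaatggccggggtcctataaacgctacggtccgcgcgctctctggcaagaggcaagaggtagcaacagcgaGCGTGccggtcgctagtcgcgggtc
ENO2: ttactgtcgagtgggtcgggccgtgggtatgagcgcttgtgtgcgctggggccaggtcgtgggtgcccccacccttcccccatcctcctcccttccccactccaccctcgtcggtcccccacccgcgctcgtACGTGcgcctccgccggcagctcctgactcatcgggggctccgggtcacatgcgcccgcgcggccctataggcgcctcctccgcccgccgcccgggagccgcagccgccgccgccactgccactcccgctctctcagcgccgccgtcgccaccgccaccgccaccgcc
PFKFB4: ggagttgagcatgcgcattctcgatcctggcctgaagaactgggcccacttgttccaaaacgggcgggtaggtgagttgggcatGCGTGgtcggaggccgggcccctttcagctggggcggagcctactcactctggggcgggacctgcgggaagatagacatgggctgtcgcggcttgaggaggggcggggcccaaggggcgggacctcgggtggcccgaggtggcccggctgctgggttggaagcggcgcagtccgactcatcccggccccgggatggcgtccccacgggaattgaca
SLC16A3: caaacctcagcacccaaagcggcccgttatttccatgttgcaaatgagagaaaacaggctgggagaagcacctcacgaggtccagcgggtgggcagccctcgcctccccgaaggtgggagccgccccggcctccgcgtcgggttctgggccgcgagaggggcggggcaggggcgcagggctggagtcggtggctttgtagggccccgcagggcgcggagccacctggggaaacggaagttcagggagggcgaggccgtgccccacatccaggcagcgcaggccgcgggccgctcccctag

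At the entry of glucose, the facilitative transporter SLC2A1 (GLUT1) and its high-affinity relative SLC2A3 (GLUT3) fell. SLC2A1 (ENSG00000117394, hg19 chromosome 1, 43391052 to 43424530) had 1410 and 1575 reads with BLU6864, against 4517 and 3212 with DMSO. Divided by the size factors of the authors these were 1481 and 1475 normalized counts with BLU6864, against 4134 and 3515 with DMSO. The groups did not overlap, and SLC2A1 was 2.58-fold lower (log2 fold change -1.37 ± 0.11 SE, edgeR adjusted p = 1.19e-10, n = 2 per group). SLC2A3 averaged 389 ± 51.2 normalized counts with BLU6864 and 556 ± 95.7 with DMSO (SD, n = 2 each), a log2 fold change of -0.51 ± 0.13 (edgeR adjusted p = 0.00314), and its call was lost without BLU6864 replicate 2 (edgeR adjusted p = 0.159).

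Some other members of the SLC2A family moved the opposite way. Of 10 further genes tested, from the SLC2A and SLC16A families with BSG, 5 rose and 0 fell (50.0% higher, beside 20.3% of all genes). At an unadjusted p under 0.05 the count lower was 1, and it was 0 with DESeq2. That gene was SLC2A10 (-0.35 ± 0.16, edgeR adjusted p = 0.074). SLC2A8 (0.28), SLC2A13 (-0.11), SLC16A7 (-0.01) and BSG (0.22) were not called either. SLC2A12 (GLUT12) had 1029 and 1256 reads with BLU6864, against 223 and 161 with DMSO, a 5.94-fold higher level (log2 fold change 2.57 ± 0.13, edgeR adjusted p = 7.75e-15). SLC2A5, the fructose transporter GLUT5, had 116 and 116 reads with BLU6864, against 24 and 17 with DMSO (2.49 ± 0.25, edgeR adjusted p = 4.86e-09), and SLC2A6 (GLUT6) had 2363 and 2789 reads with BLU6864, against 1675 and 1257 with DMSO (0.81 ± 0.11, edgeR adjusted p = 6.41e-07). The other risers, SLC2A11 (0.96 ± 0.15) and the insulin-responsive SLC2A4 (35 and 38 reads with BLU6864, against 10 and 8 with DMSO, edgeR adjusted p = 9.7e-05), were named after their values were seen. On a scale of reads per kilobase of the MANE Select transcript corrected for library size (RPKM), chosen after the values were seen so that genes can be compared, the summed level of 12 SLC2A genes was 88.2 and 90.7 with BLU6864 and 93.8 and 81.8 with DMSO, and the groups overlapped. SLC2A1 made up 19.8 and 19.1% of that sum with BLU6864 and 50.3 and 48.9% with DMSO. SLC2A6 made up 45.0 and 46.0% with BLU6864 and 25.3 and 26.0% with DMSO. The SLC2A gene with the highest per-length level was thus SLC2A6 in both BLU6864 libraries and SLC2A1 in both DMSO libraries. Such levels do not show what a transporter carries or in which membrane it lies, so the sum is no measure of glucose uptake.

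Among the hexokinases, which phosphorylate glucose, both members fell and a relative rose. HK2, the isoform known for its high level in tumours, had 639 and 709 reads with BLU6864, against 2750 and 1783 with DMSO. The normalized counts were 671 and 664 with BLU6864 and 2517 and 1951 with DMSO, without overlap, and HK2 (ENSG00000159399, hg19 chromosome 2, 75061108 to 75120486) was 3.34-fold lower (-1.74 ± 0.12, edgeR adjusted p = 5.32e-12). HK1, the widely expressed isoform, averaged 3653 ± 54.2 normalized counts with BLU6864 and 6186 ± 1202 with DMSO (-0.76 ± 0.12, edgeR adjusted p = 1.56e-05). The log2 ratio of HK2 to HK1 was -2.46 and -2.44 in the BLU6864 libraries and -1.48 and -1.45 in the DMSO libraries, a difference of -0.98.

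HKDC1, a hexokinase-domain gene that is no member and lies next to HK1 (hg19 chromosome 10, 70980059 to 71027315, with HK1 at 71029740 to 71161638), had 11110 and 12213 reads with BLU6864, against 1951 and 1490 with DMSO. It was 6.78-fold higher (2.76 ± 0.12, edgeR adjusted p = 6.84e-16), the smallest adjusted p among the further glycolysis genes. Per transcript length, HKDC1 stood at 127 and 125 RPKM with BLU6864 and 18.9 and 17.2 with DMSO, and HK1 at 40.8 and 39.9 with BLU6864 and 75.4 and 57.0 with DMSO. HKDC1 thus held 73.6 and 73.6% of the summed per-length level of the hexokinase genes with BLU6864, against 16.9 and 19.6% with DMSO. The sum itself was 173 and 169 with BLU6864 and 112 and 87.6 with DMSO, so the summed level was higher in both BLU6864 libraries although HK1 and HK2 were lower.

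**Figure D3:**
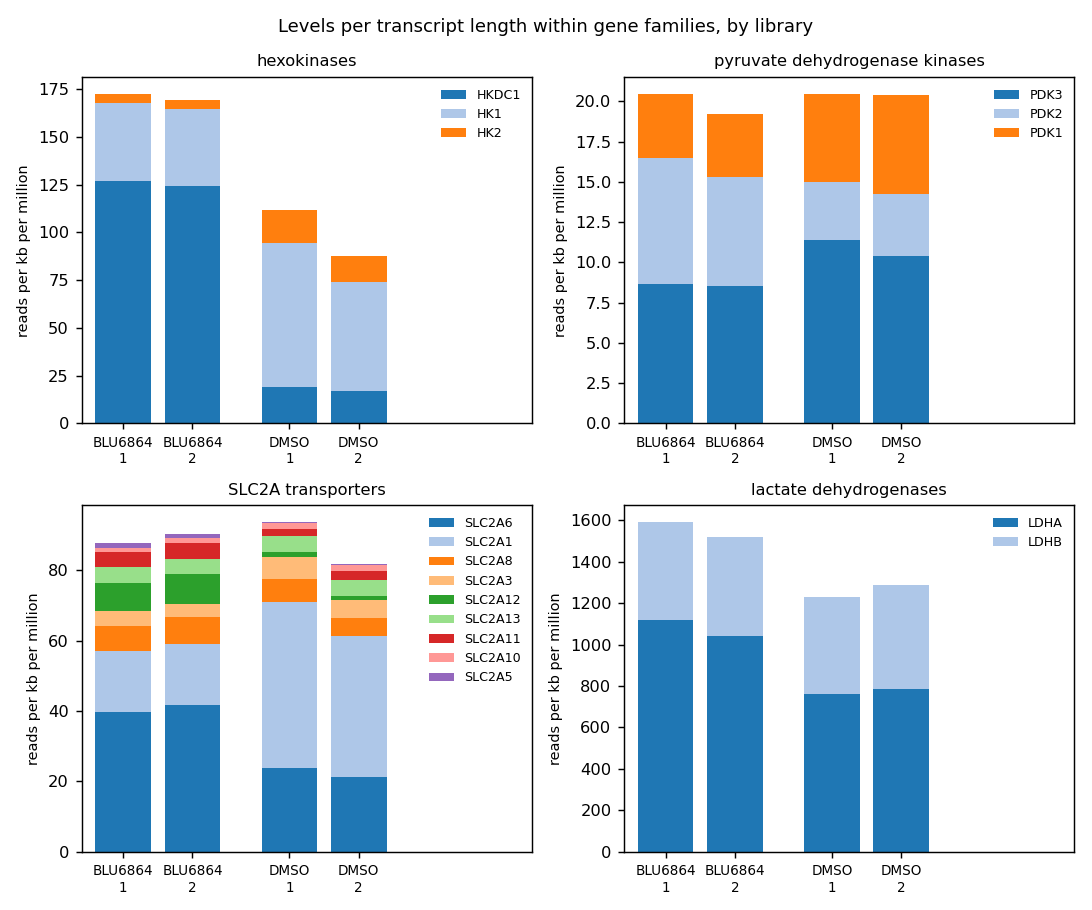
Bars show, for each library on the x axis, the level of each gene in RPKM (y axis) stacked within 4 gene families, without genes at very low levels. HKDC1 fills most of the hexokinase bar with BLU6864 (73.6% in both libraries) and HK1 most of it with DMSO. The pyruvate dehydrogenase kinase and SLC2A bars keep a similar height with another composition. The height of the kinase bar depends on the transcript lengths used, such as 14072 bases for PDK1.

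Glucose-6-phosphate isomerase, GPI, which forms fructose 6-phosphate, fell slightly, at 5550 ± 92.6 normalized counts with BLU6864 and 7087 ± 888 with DMSO (-0.35 ± 0.12, edgeR adjusted p = 0.0181). Its call did not hold without BLU6864 replicate 1, BLU6864 replicate 2 or DMSO replicate 1 (edgeR adjusted p = 0.188, 0.265 and 0.074). At phosphofructokinase, the committed step, the platelet-type subunit PFKP fell and the liver and muscle types did not pass. PFKP had 2939 and 3063 reads with BLU6864, against 6601 and 4701 with DMSO, or 3088 and 2869 normalized counts with BLU6864 and 6042 and 5144 with DMSO. The groups were apart, and PFKP was 1.87-fold lower (-0.91 ± 0.11, edgeR adjusted p = 3.22e-07). PFKL averaged 3509 ± 23.6 with BLU6864 and 4136 ± 537 with DMSO (95% interval of the log2 fold change -0.46 to -0.00), and PFKM 1860 ± 142 with BLU6864 and 2147 ± 105 with DMSO (-0.42 to 0.01). Without DMSO replicate 2 both were called lower (edgeR adjusted p = 0.000822 for PFKL and 0.0142 for PFKM). The log2 ratio of PFKP to PFKL was -0.19 and -0.28 with BLU6864 and 0.42 and 0.45 with DMSO. Per transcript length PFKP made up 38.9 and 38.2% of the phosphofructokinase level with BLU6864 and 50.3 and 50.0% with DMSO.

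The PFKFB enzymes make and remove fructose 2,6-bisphosphate, the strongest activator of phosphofructokinase, and 2 of the 3 members fell. PFKFB4 had 461 and 613 reads with BLU6864, against 1563 and 1134 with DMSO, or 484 and 574 normalized counts with BLU6864 and 1431 and 1241 with DMSO. With no overlap, it was 2.51-fold lower (-1.33 ± 0.12, edgeR adjusted p = 8.63e-10). PFKFB3, the isoform with the highest kinase to phosphatase activity, averaged 1333 ± 6.63 with BLU6864 and 2317 ± 215 with DMSO (-0.79 ± 0.11, edgeR adjusted p = 9.78e-07). PFKFB2, the heart isoform, overlapped between the groups at 575 ± 53.6 with BLU6864 and 576 ± 51.5 with DMSO (95% interval -0.25 to 0.25). Summed per length, the family stood at 20.9 and 21.4 RPKM with BLU6864 and 40.4 and 35.2 with DMSO.

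Through the middle of the chain the abundant enzymes lay a little lower with BLU6864, and ALDOA, GAPDH and PGK1 did not pass the test. Aldolase ALDOA, which splits fructose 1,6-bisphosphate, averaged 24661 ± 391 normalized counts with BLU6864 and 29653 ± 3673 with DMSO (95% interval -0.54 to 0.01). Its brain-type relative ALDOC, at 82.0 ± 5.95 with BLU6864 and 128 ± 13.3 with DMSO, fell (-0.63 ± 0.18, edgeR adjusted p = 0.00679), and lost the call without BLU6864 replicate 1 (edgeR adjusted p = 0.118). Triosephosphate isomerase TPI1 fell (-0.40 ± 0.12, edgeR adjusted p = 0.0108), with 14919 ± 387 with BLU6864 and 19785 ± 1003 with DMSO, and without BLU6864 replicate 1 or 2 its edgeR adjusted p was 0.161 or 0.226. GAPDH, often used as a reference gene, averaged 132864 ± 3474 with BLU6864 and 153799 ± 4534 with DMSO (95% interval -0.51 to 0.10). PGK1, the first step that yields ATP, averaged 30758 ± 1643 with BLU6864 and 37849 ± 1639 with DMSO (interval -0.57 to -0.02, edgeR adjusted p = 0.0753), and was called lower with DESeq2 (adjusted p = 0.0175), with limma-voom (adjusted p = 0.0479) and in edgeR without DMSO replicate 1 (adjusted p = 0.0285). Phosphoglycerate mutase PGAM1 fell (-0.32 ± 0.11, edgeR adjusted p = 0.0178), with 3637 ± 20.0 with BLU6864 and 4548 ± 17.9 with DMSO, and its call did not hold without BLU6864 replicate 1 or 2 (edgeR adjusted p = 0.225 or 0.28). ALDOA was called lower without DMSO replicate 2 (edgeR adjusted p = 0.005). Reads of these genes may be shared with processed copies, since the annotation holds 65 pseudogenes named after GAPDH, 13 after PGAM1 and 4 after TPI1. Of the exonic bases of ALDOA, 42.8% overlap another protein-coding gene on the same strand in GENCODE v44.

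Enolase, which forms phosphoenolpyruvate, again split by isoform. ENO2, the neuronal-type enolase and a known HIF target, had 1561 and 1666 reads with BLU6864, against 4656 and 3659 with DMSO. Normalized, it was at 1640 and 1560 with BLU6864 and at 4262 and 4004 with DMSO, well apart, and 2.58-fold lower (ENSG00000111674, hg19 chromosome 12, 7022909 to 7032861; -1.36 ± 0.11, edgeR adjusted p = 6.4e-11). ENO1, the ubiquitous form, averaged 72614 ± 3163 with BLU6864 and 85617 ± 6958 with DMSO (95% interval -0.53 to 0.06). Per length ENO1 held 98.2 and 98.2% of the enolase level with BLU6864 and 96.4 and 96.3% with DMSO, so the isoform that fell most was a small part of the step. ENO3, the muscle form and no member, was higher with BLU6864 at 63 and 87 reads, against 35 and 27 with DMSO (1.26 ± 0.25, edgeR adjusted p = 0.000199). Pyruvate kinase PKM averaged 107383 ± 6113 with BLU6864 and 126460 ± 14201 with DMSO (95% interval -0.54 to 0.07). Without DMSO replicate 2, ENO1 and PKM were called lower (edgeR adjusted p = 0.0406 and 0.033).

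LDHA, the muscle-type lactate dehydrogenase and a textbook HIF target, rose. It had 59877 and 62733 reads with BLU6864, against 48175 and 41729 with DMSO. Normalized counts were 62912 and 58758 with BLU6864 and 44095 and 45661 with DMSO, without overlap, a 1.36-fold higher level (0.44 ± 0.14, edgeR adjusted p = 0.0108). The call did not hold without BLU6864 replicate 1 (edgeR adjusted p = 0.222) or BLU6864 replicate 2 (0.0872). LDHB averaged 15582 ± 41.4 with BLU6864 and 16490 ± 837 with DMSO (95% interval -0.33 to 0.18), and the log2 ratio of LDHA to LDHB was 2.02 and 1.91 with BLU6864 and 1.47 and 1.42 with DMSO. The annotation holds 6 pseudogenes named after LDHA, and 33.4% of the exonic bases of LDHB overlap another protein-coding gene on the same strand. The 17 member enzymes from hexokinase to lactate dehydrogenase together took 1.98 and 1.87% of all reads with BLU6864, against 2.21 and 2.04% with DMSO (exact 95% binomial intervals 1.97 to 1.98%, 1.87 to 1.88%, 2.20 to 2.21% and 2.03 to 2.04%, counting error only). Group means differed by -0.20 percentage points, with SDs of 0.0742 with BLU6864 and 0.124 with DMSO. The difference was -0.1125 without DMSO replicate 1 and -0.2875 without DMSO replicate 2. Within those reads LDHA had 12.7 and 12.5% with BLU6864 and 7.70 and 8.63% with DMSO, whereas GAPDH had 27.3 and 27.7% with BLU6864 and 27.4 and 28.5% with DMSO.

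Pyruvate dehydrogenase kinases, which inhibit the mitochondrial pyruvate dehydrogenase complex, changed in opposite directions. PDK2 had 628 and 611 reads with BLU6864, against 341 and 308 with DMSO. Its normalized counts were 660 and 572 with BLU6864 and 312 and 337 with DMSO, apart from each other, and it was 1.90-fold higher (0.93 ± 0.13, edgeR adjusted p = 1.1e-06). Of the exonic bases of PDK2, 38.6% overlap SAMD14 on the opposite strand, which had 75 and 57 reads with BLU6864, against 102 and 74 with DMSO. PDK1, the HIF-responsive isoform, averaged 1403 ± 22.1 with BLU6864 and 2128 ± 178 with DMSO and fell (-0.60 ± 0.11, edgeR adjusted p = 5.2e-05). PDK3 averaged 376 ± 4.61 with BLU6864 and 492 ± 31.8 with DMSO and fell (-0.38 ± 0.12, edgeR adjusted p = 0.0135). This call did not hold without BLU6864 replicate 1 or 2 (edgeR adjusted p = 0.136 or 0.182). Among the PDK genes PDK2 held 37.7 and 34.9% of the summed per-length level with BLU6864 and 17.5 and 18.9% with DMSO. The sum was 20.7 and 19.4 RPKM with BLU6864 and 20.5 and 20.5 with DMSO, and the groups overlapped. These levels divide the reads of PDK1 by a transcript of 14072 bases, against 3364 for PDK2 and 1741 for PDK3. The shares and the sum depend on these lengths, and other lengths were not tried. PDK4, the isoform tied to fatty acid use, was named after its values were seen and had 21 and 20 reads with BLU6864, against 2 and 5 with DMSO.

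Lactate leaves the cell through monocarboxylate transporters. SLC16A3 (MCT4), the exporter of glycolytic cells, had 3580 and 4217 reads with BLU6864, against 9554 and 6890 with DMSO. The normalized counts, 3761 and 3950 with BLU6864 and 8745 and 7539 with DMSO, did not overlap, and SLC16A3 was 2.10-fold lower (-1.07 ± 0.12, edgeR adjusted p = 2.67e-08). SLC16A1 (MCT1) averaged 7019 ± 802 with BLU6864 and 6387 ± 328 with DMSO with overlapping groups (95% interval -0.10 to 0.38). Per transcript length SLC16A1 made up 56.8 and 51.7% of the SLC16A level with BLU6864 and 33.8 and 35.4% with DMSO.

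**Figure D4:**
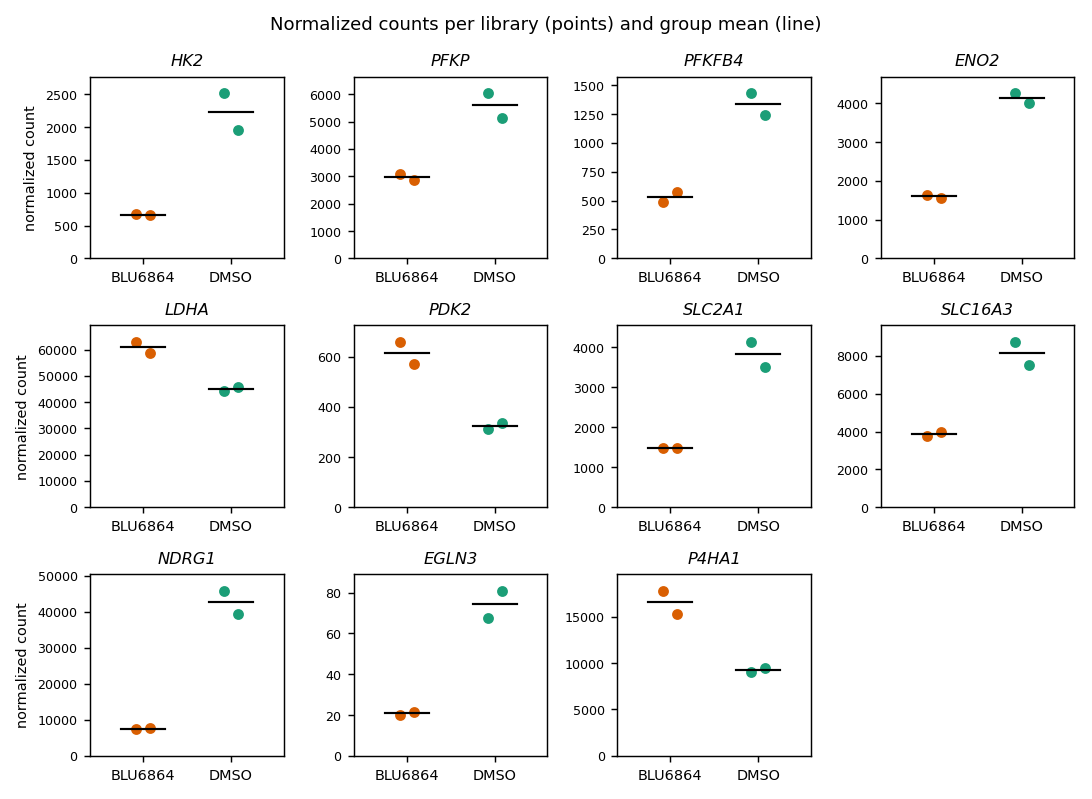
Each panel gives the normalized count (y axis, from 0) of 1 member in each library (points) and the mean of each group (line), with BLU6864 left of DMSO. The panels are the 8 members called lower by at least 0.8 on the log2 scale and the 3 called higher. They were chosen by calls on these same libraries, so the lack of overlap between the groups is no separate result. NDRG1 lies at 7436 and 7614 with BLU6864 and at 45931 and 39380 with DMSO.

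Outside glycolysis, 7 of 10 tested HIF targets fell, 1 rose and 2 did not pass (70.0% lower and 10.0% higher, beside 22.0% and 20.3% of all genes). The largest change of any member was that of NDRG1, a stress-responsive gene (ENSG00000104419, hg19 chromosome 8, 134249414 to 134314265). NDRG1 had 7077 and 8129 reads with BLU6864, against 50181 and 35989 with DMSO. Normalized, these were 7436 and 7614 with BLU6864 and 45931 and 39380 with DMSO, far apart, and NDRG1 was 5.65-fold lower (-2.50 ± 0.14, edgeR adjusted p = 6.22e-14). Of the mitophagy receptors, BNIP3 averaged 4634 ± 93.9 with BLU6864 and 6715 ± 383 with DMSO and fell (-0.53 ± 0.11, edgeR adjusted p = 0.000378, and 0.0556 without BLU6864 replicate 2). BNIP3L averaged 8883 ± 358 with BLU6864 and 9916 ± 1137 with DMSO with overlapping groups (95% interval -0.40 to 0.09), and was called lower without DMSO replicate 1 (edgeR adjusted p = 0.0362). The annotation holds 44 pseudogenes named after BNIP3, with which reads may be shared. ADM, which encodes the vessel-dilating peptide adrenomedullin, averaged 704 ± 45.1 with BLU6864 and 662 ± 4.74 with DMSO (95% interval -0.14 to 0.33).

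ANKRD37, an ankyrin-repeat gene, was low, with 28 and 64 reads with BLU6864, against 74 and 69 with DMSO, and its call (-0.65 ± 0.26, edgeR adjusted p = 0.0475) was lost with DESeq2 (adjusted p = 0.17), with a stricter filter (edgeR adjusted p = 0.0533) and without BLU6864 replicate 1 (0.629) or DMSO replicate 2 (0.0939). Of its exonic bases 40.3% overlap UFSP2 on the opposite strand, which did not pass the test (0.09 ± 0.11, edgeR adjusted p = 0.549). CA9, carbonic anhydrase 9, is widely used as a marker of hypoxia. Its 2 reads in each BLU6864 library, against 1 and 0 with DMSO, lie under the 3 reads that a count of 0 allows, so no change was detectable at this depth, and 35.7% of its exonic bases overlap ARHGEF39.

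The prolyl hydroxylases that are themselves HIF targets both fell. EGLN3 (PHD3) was scarce, with 19 and 23 reads with BLU6864, against 74 and 74 with DMSO. Its normalized counts were 20.0 and 21.5 with BLU6864 and 67.7 and 81.0 with DMSO, without overlap, and it was 3.53-fold lower (ENSG00000129521, hg19 chromosome 14, 34393437 to 34931980; -1.82 ± 0.27, edgeR adjusted p = 4.63e-06). EGLN1 (PHD2), the main oxygen sensor of the HIF system, averaged 2652 ± 89.2 with BLU6864 and 3979 ± 415 with DMSO (-0.58 ± 0.11, edgeR adjusted p = 0.000109). Of the exonic bases of EGLN1, 55.8% overlap another protein-coding gene on the same strand in GENCODE v44. Whether that gene was in the annotation counted is not known. KDM3A, a histone H3 lysine demethylase, averaged 1335 ± 21.5 with BLU6864 and 2031 ± 21.3 with DMSO (-0.60 ± 0.10, edgeR adjusted p = 3.5e-05).

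The collagen prolyl 4-hydroxylase subunits moved in opposite directions. P4HA1 had 16942 and 16344 reads with BLU6864, against 9826 and 8627 with DMSO. As normalized counts these were 17801 and 15308 with BLU6864 and 8994 and 9440 with DMSO, apart in every library, a 1.80-fold higher level (0.85 ± 0.12, edgeR adjusted p = 3.78e-06). P4HA2 averaged 1232 ± 117 with BLU6864 and 1661 ± 166 with DMSO (-0.43 ± 0.11, edgeR adjusted p = 0.0028, and 0.215 without BLU6864 replicate 2). The log2 ratio of P4HA2 to P4HA1 was -3.76 and -3.74 with BLU6864 and -2.34 and -2.61 with DMSO.

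Ratios between relatives were compared within each library for 14 pairs of members, and in none did the groups overlap. Some genes, such as PFKFB4 and PDK1, enter several pairs, and the share without overlap was not computed for pairs of other genes. Of single genes over all tested, 35.7% lay lower and 35.1% higher without overlap. The largest differences between BLU6864 and DMSO on the log2 scale were -1.52 for PDK1 to PDK2, -1.33 for PFKFB4 to PFKFB2, -1.27 for P4HA2 to P4HA1, -1.25 for EGLN3 to EGLN1 and -1.21 for SLC16A3 to SLC16A1. The smallest was -0.21 for PDK1 to PDK3. In an exact two-sided permutation test every pair had p = 0.333, before and after adjustment over the 14 pairs, which is the smallest p that 2 against 2 libraries can give.

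HIF1A, the oxygen-labile subunit of HIF-1, did not pass the test, at 29659 and 27022 normalized counts with BLU6864 and 32103 and 31834 with DMSO (-0.17 ± 0.13, 95% interval -0.44 to 0.10, edgeR adjusted p = 0.312). Its transcript level does not measure the protein, which is set by hydroxylation. Of 12 tested genes of the HIF machinery outside the members, 2 fell and 2 rose (16.7% each, below the 22.0% and 20.3% of all genes). EPAS1, the alpha subunit of HIF-2, had 2126 and 2518 reads with BLU6864, against 5580 and 3999 with DMSO, and was 2.06-fold lower (-1.04 ± 0.11, edgeR adjusted p = 2.15e-08). CUL2, the cullin of the VHL ubiquitin ligase, had 3123 and 3314 reads with BLU6864, against 5916 and 5276 with DMSO (-0.80 ± 0.11, edgeR adjusted p = 1.12e-06). EGLN2 (PHD1) rose (0.57 ± 0.16, edgeR adjusted p = 0.00629, and 0.11 without BLU6864 replicate 2), as did the coactivator CREBBP (0.44, edgeR adjusted p = 0.00227), which was named after its values were seen. The beta subunit ARNT (0.18 ± 0.11), VHL (-0.12 ± 0.10) and the asparagine hydroxylase HIF1AN (-0.08 ± 0.11) did not pass (edgeR adjusted p = 0.189, 0.351 and 0.565), and ARNT was called higher without DMSO replicate 1 (edgeR adjusted p = 0.044).

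Further hypoxia targets that are no members were mixed. Of 36 tested, 15 fell and 5 rose (41.7% and 13.9%, beside 22.0% and 20.3% of all genes). The transcriptional repressor BHLHE40 was 3.72-fold lower, with 1037 and 1083 reads with BLU6864, against 4591 and 3324 with DMSO (-1.89 ± 0.11, edgeR adjusted p = 2.22e-13). RBPJ, the DNA-binding partner of Notch, was 2.18-fold lower (-1.13 ± 0.11, edgeR adjusted p = 8.73e-09), and AK4, a mitochondrial adenylate kinase, 1.81-fold lower (-0.85 ± 0.11, edgeR adjusted p = 2.55e-07). The risers, which were named once their values had been seen, were WSB1, a substrate receptor of a ubiquitin ligase (1.12 ± 0.14), LOX, which crosslinks collagen (0.84 ± 0.19), DDIT4, an inhibitor of mTORC1 (0.80 ± 0.13), the cyclin CCNG2 (0.73 ± 0.11) and the secreted glycoprotein STC2 (0.66 ± 0.23). STC2 had 71 and 79 reads with BLU6864, against 61 and 34 with DMSO, and its call (edgeR adjusted p = 0.0256) was lost with DESeq2 (adjusted p = 0.125) and in edgeR without BLU6864 replicate 1 or 2 or DMSO replicate 2 (0.132, 0.148 and 0.158). Over all 87 tested genes of the pathway outside the members, 22 fell (25.3%) and 17 rose (19.5%), shares near those of all genes.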

How the data were processed

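RNA sequencing was analysed in 4 libraries, 2 of BLU6864 and 2 of DMSO, grouped by their labels. Per the labels, single-end reads came from TruSeq libraries, and the submitters' processing notes name STAR 2.3, hg19 and DESeq2, with no DESeq2 version. The study's methods, written for a larger set, describe paired-end reads, a stranded kit and a later STAR. Which tool, annotation and strand setting made the counts was not given in the sources used here, so overlapping genes and copies can share reads. Titles of both BLU6864 samples carry the word re-analysis. The authors deposited raw counts per gene and, in the same table, a signal of normalized counts, in which the authors had divided the counts of a library by its size factor. Their fold changes, standard errors, test scores and p-values were not used.

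The counts entered edgeR 4.0.16 under R 4.3.3 (low-count filter by filterByExpr, TMM, quasi-likelihood F test, two-sided, group only) with Benjamini-Hochberg adjustment over 12696 genes. SEs were derived from F, intervals are 95%, and means ± SD use the normalized counts. The tests were also run on simulated counts, drawn independently with the dispersions fitted on these libraries. Such counts cannot show whether the spread between the libraries is only technical. The members and lists were chosen with earlier results of these data known. Library values are given for members called with an absolute log2 fold change of at least 0.8 or called higher, and further genes are up to 3 per list by adjusted p, with an absolute log2 fold change of at least 0.5 and a mean of at least 50, and 5 HIF regulators. Alternatives used RLE factors, DESeq2 1.42.0, limma-voom 3.58.1, other filters, a replicate block, another call rule, and each library left out. Per-length levels and overlaps used GENCODE v44, and promoters RefSeq. GENCODE v44 is on a later genome build than the hg19 of the counts, so an overlapping gene may be absent from the annotation counted. Where a library was left out, the lone library of its group was assumed to vary like the other group.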

Additional observations from a re-analysis of the deposited data

How the results depend on the processing

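Of the 38 tested members, 20 kept their direction and their side of the threshold in all 10 alternative fits, and the members that did not are given with their values in the report. Members called lower numbered 15 to 26 when each library was left out and 21 to 25 in the other fits, and those called higher 2 to 3. Over all genes the count lower ran from 1490 to 3621 and the count higher from 1250 to 3311 when each library was left out, against 2790 and 2574 with all libraries, and was 1584 and 1397 under the rule of a log2 fold change beyond 0.5. PFKFB2, at -0.00, changed sign with DESeq2 (0.0006), a stricter filter (0.0096), without BLU6864 replicate 2 (0.0892) and without DMSO replicate 1 (0.0877), with -0.0937 to 0.0892 over the libraries left out. HIF1AN changed sign without DMSO replicate 1 (0.0019, with -0.169 to 0.0019 over the libraries left out). The cause was not tested.

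Nothing in the labels says whether same-numbered libraries were paired. Their deviations had a correlation of 0.14 over 12696 genes, which does not settle it. With the replicate block 25 members were lower and 3 higher (3039 and 2924 of all genes), PFKFB2 was at 0.001, and PFKL, ALDOA and PGK1 were called lower (edgeR adjusted p = 0.0494, 0.0385 and 0.017). With 2 libraries per group, differences of about the size seen in GAPDH, PKM or ENO1 were not resolved.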

Other observations

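In the pentose phosphate path, which branches off after hexokinase, 2 of 8 tested genes fell and 0 rose in edgeR (0 at an unadjusted p under 0.05, and 0 with DESeq2). Over all genes, 22.0% were called lower and 20.3% higher. RPIA, the ribose 5-phosphate isomerase, had 321 and 306 reads with BLU6864, against 588 and 505 with DMSO and was 1.75-fold lower (-0.80 ± 0.13, edgeR adjusted p = 1.11e-05). The other was H6PD, the hexose 6-phosphate dehydrogenase of the endoplasmic reticulum (-0.47, edgeR adjusted p = 0.00103), named after its values were seen. C12orf5 (TIGAR), which lowers fructose 2,6-bisphosphate, had 222 and 271 reads with BLU6864, against 442 and 395 with DMSO (-0.77 ± 0.13, edgeR adjusted p = 3e-05). A further list held the mitochondrial pyruvate carrier, the pyruvate dehydrogenase complex and the phosphatases of that complex. Of its 10 tested genes, 1 fell and 2 rose (10.0% and 20.0%, beside 22.0% and 20.3% of all genes), each by less than 0.4 on the log2 scale.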
